A study of Arabidopsis thaliana with 39 samples.

Results

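The rosettes of 35S::SLIM1 #25, an Arabidopsis thaliana line that overexpresses the transcription factor gene SLIM1, were compared between 44 and 37 days after sowing (DAS). The comparison used 6 of the 39 RNA-seq libraries of the series, 3 at 44 DAS and 3 at 37 DAS, which were chosen by their genotype and day labels alone. Line #25 is the progeny of 1 transformant and carries a single insert of the SLIM1 coding sequence behind the CaMV 35S promoter in the Col-0 background. T2 seedlings were selected on 30 mg/L hygromycin and grown in soil from 12 DAS under a 16 h photoperiod with no further treatment. The other groups used here were 35S::SLIM1 #17, which descends from another transformant with the same construct, slim1-cr, which carries a CRISPR/Cas9 deletion in SLIM1, and the Col-0 wild type, each with 3 libraries at 44 DAS and 3 at 37 DAS. The study's methods name hygromycin plates for the 35S::SLIM1 lines, and empty-vector plants were sequenced at 30 DAS only. In comparisons with Col-0 and slim1-cr, selection and vector therefore cannot be told apart from the transgene. Stalk and reproductive tissue were cut off before the whole rosette was frozen, so leaves of different age were mixed in each sample.

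Leaf senescence is the last phase of leaf development, in which chlorophyll is broken down, chloroplasts are dismantled, and nitrogen, sulfur and carbon are moved from old leaves to growing organs and seeds. NAC and WRKY transcription factors act as its regulators. Jasmonate, abscisic acid, ethylene and salicylate promote it in Arabidopsis, whereas cytokinin delays it. SLIM1 (EIL3) belongs to the ETHYLENE-INSENSITIVE3-like family and is known as the central regulator of the transcriptional response to sulfur deficiency.

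Library totals were 40.85, 45.1 and 41.6 M counts at 44 DAS, against 44.5, 45.5 and 46.1 M counts at 37 DAS. Replicates differed by more than counting error, and the chi-square of 2 libraries over genes, divided by its degrees of freedom, was 16.7 to 74.8 within a day and 385 to 726 between the days. Replicate 2 at 37 DAS stood apart from the other 37 DAS libraries and was the closest of them to every 44 DAS library. The labels number the replicates but do not say that each was a separate plant, so p-values measure the spread between these samples. Flower organ genes fixed as markers (AP3, PI, AG, SEP1, SEP2 and SEP3) summed to 2.64 to 13.1 CPM at 44 DAS and 13.1 to 27.2 CPM at 37 DAS, and replicate 1 had the highest sum of the 44 DAS libraries. Expression is given in counts scaled to 1 M per library (CPM) with TMM factors. A gene was called changed when the adjusted p of the edgeR quasi-likelihood test was below 0.05, and log2FC is the log2 ratio of 44 over 37 DAS, with its SE.

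The transgene was expressed on both days and its gene count was higher at 44 DAS. SLIM1 (AT1G73730), at chromosome 1, 27730031 to 27732683 in TAIR10.1, was at 251, 302 and 325 CPM at 44 DAS, against 174, 195 and 206 CPM at 37 DAS. The lowest library at 44 DAS exceeded the highest at 37 DAS (log2FC 0.61, SE 0.14, adjusted p = 0.000524). Mean expression in #25 was 93.8, 192 and 293 CPM at 30, 37 and 44 DAS. In Col-0, SLIM1 was at 19.4 ± 1.002 CPM at 44 DAS and 22.1 ± 0.893 CPM at 37 DAS (SD, n = 3), and the change in #25 minus that in Col-0 was 0.8 (SE 0.21, adjusted p = 0.00221). Reads of the transgene and of the native gene count to the same locus.

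Between 37 and 44 DAS most of the measured transcriptome of #25 changed. Of 21040 genes tested, 13851 were called (65.8%), of which 6171 were higher (29.3% of all tested) and 7680 lower (36.5%) at 44 DAS. A change of at least 2-fold was called for 2349 genes in the upward direction (11.2%) and 3894 in the downward direction (18.5%), and a change of at least 4-fold for 800 and 1524 genes. The libraries of the 2 days did not overlap for 73.7% of genes tested. The median log2FC of all genes tested was -0.06. When libraries were scaled by their size alone, this median was 0.09 and the calls were 7630 higher and 6238 lower, so that 55% of calls were upward, against 44.6% with TMM factors. The 20 most abundant genes took 6.48% to 7.2% of the counts of a library at 44 DAS and 9.44% to 12.1% at 37 DAS.

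**Figure D1:**
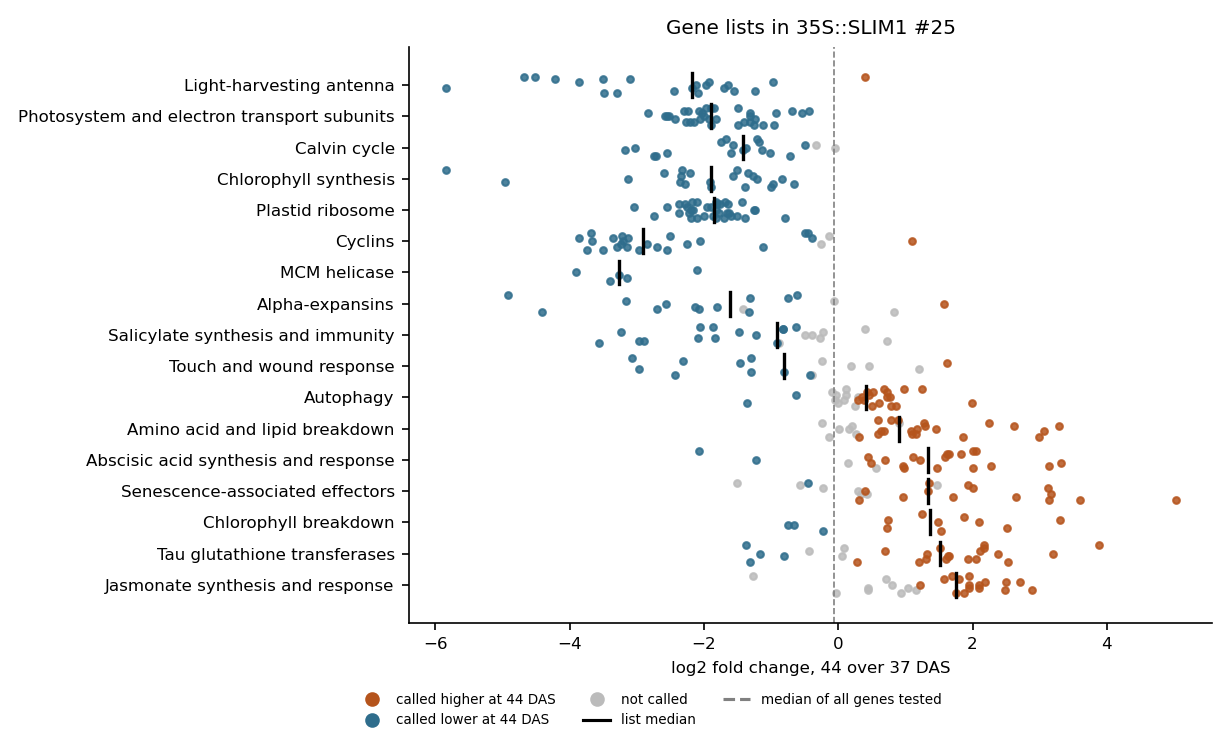
Log2 fold change of each tested member of 17 gene lists in 35S::SLIM1 #25, 44 over 37 DAS (x axis), with 1 point per gene coloured by its call, a black bar at the list median and a dashed line at the median of all genes tested. The lists of the photosynthetic apparatus, cyclins and MCM helicase lie to the left (medians -1.42 to -3.26), and chlorophyll breakdown, abscisic acid and jasmonate lists to the right (medians 1.34 to 1.76).

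The light-harvesting antenna, the chlorophyll-binding proteins that pass absorbed light to the photosystems, was lower at 44 DAS almost throughout. Of 21 antenna genes, 20 were lower at 44 DAS and 1 was higher, with a median log2FC of -2.18. The exception, LHCB7 (log2FC 0.4, adjusted p = 0.01001), was named after its value was seen and was not called without replicate 3 at 44 DAS. LHB1B1 (AT2G34430), which encodes a trimeric antenna protein of photosystem II of the Lhcb1 type, was at 56.8, 27.2 and 42.1 CPM at 44 DAS, against 2816, 1875 and 2541 CPM at 37 DAS. All 3 libraries at 44 DAS were far below all 3 at 37 DAS (log2FC -5.84, SE 0.51, adjusted p = 1.48e-10). CAB2 (AT1G29920), another Lhcb1 gene, was at 372, 215 and 263 CPM at 44 DAS, against 8081, 6296 and 7450.3 CPM at 37 DAS. The days did not overlap (log2FC -4.68, SE 0.28, adjusted p = 4.33e-13). LHCB2.3 (AT3G27690), of the Lhcb2 type, was at 56.97, 35.1 and 50.5 CPM at 44 DAS, against 1392, 764 and 1084 CPM at 37 DAS. It was again lower in every 44 DAS library (log2FC -4.51, SE 0.32, adjusted p = 3.81e-12). Other members with large changes were LHCB2.2 (log2FC -4.22, SE 0.26), LHCB2.1 (-3.87, SE 0.24) and CAB3 (-3.29, SE 0.25), whereas CAB1 fell by less (log2FC -2.45, SE 0.19). CAB1, CAB2 and CAB3, like LHCB2.1 and LHCB2.2, have nearly identical sequences, so the division of reads among them is uncertain. In a whole rosette, fewer green cells and less of a transcript per cell cannot be told apart.

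Because the antenna genes and the chlorophyll breakdown genes moved in opposite directions, the 200 bases upstream of the start of the 3 most changed members of each list are shown (RefSeq, TAIR10.1, 5′ to 3′ on the strand of the gene). Capitals mark matches on either strand to the motifs searched, which were the G-box CACGTG, the W-box core TTGAC, the evening element AAAATATCT, the I-box GATAAG, the SURE core GAGAC and the telo-box AAACCCTA.
LHB1B1, chr2:14524407-14524606, plus strand: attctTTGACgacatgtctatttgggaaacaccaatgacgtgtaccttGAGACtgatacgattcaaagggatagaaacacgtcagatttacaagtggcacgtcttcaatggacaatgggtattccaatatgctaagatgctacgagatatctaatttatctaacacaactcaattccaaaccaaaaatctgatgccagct
CAB2, chr1:10475970-10476169, minus strand: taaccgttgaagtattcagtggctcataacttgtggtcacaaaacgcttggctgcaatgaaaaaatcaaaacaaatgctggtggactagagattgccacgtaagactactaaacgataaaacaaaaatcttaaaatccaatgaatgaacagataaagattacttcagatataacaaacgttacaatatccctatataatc
LHCB2.3, chr3:10255706-10255905, plus strand: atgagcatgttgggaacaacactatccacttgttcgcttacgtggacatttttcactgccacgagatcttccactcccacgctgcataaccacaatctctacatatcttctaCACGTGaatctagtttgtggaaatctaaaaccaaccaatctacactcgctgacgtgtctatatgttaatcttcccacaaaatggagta
NYE2, chr4:7155950-7156149, plus strand: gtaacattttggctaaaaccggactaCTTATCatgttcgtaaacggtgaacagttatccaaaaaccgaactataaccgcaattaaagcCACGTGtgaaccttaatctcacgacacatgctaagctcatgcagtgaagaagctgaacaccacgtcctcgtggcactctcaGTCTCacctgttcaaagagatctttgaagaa
CLH1, chr1:6805093-6805292, minus strand: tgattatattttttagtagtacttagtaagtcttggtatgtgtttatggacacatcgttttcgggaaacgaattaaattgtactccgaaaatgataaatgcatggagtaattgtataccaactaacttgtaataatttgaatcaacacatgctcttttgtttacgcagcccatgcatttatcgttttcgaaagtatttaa
NYE1, chr4:12018644-12018843, minus strand: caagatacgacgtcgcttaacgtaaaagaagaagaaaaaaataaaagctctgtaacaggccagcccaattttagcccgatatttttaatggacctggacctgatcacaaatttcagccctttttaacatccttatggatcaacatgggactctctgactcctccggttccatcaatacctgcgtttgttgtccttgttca
LHB1B1 had a W-box core and a SURE core and LHCB2.3 had a G-box. NYE2 had an I-box, a G-box and a SURE core, and the windows of CAB2, CLH1 and NYE1 held none of these letters.

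Across promoter windows from 250 bases before to 50 bases after the start, the G-box was in 8.78% of the 21019 tested genes that had a window. It was in 11.7% of genes called at least 2-fold higher and 7.94% of those at least 2-fold lower, in 5 of 21 antenna genes (23.8%) in 3 of 12 chlorophyll breakdown genes (25%) and in 3 of 36 plastid ribosome genes (8.33%). The I-box was in 44.4% of plastid ribosome genes, 28.6% of antenna genes and 8.33% of chlorophyll breakdown genes, in 14% of genes at least 2-fold higher and 16.3% of those at least 2-fold lower, against 14.9% of all tested genes with a window. The telo-box was in 2.91% of genes at least 2-fold higher and 5.21% of those at least 2-fold lower, against 5.43% of all. The W-box core was in 53.3% of genes at least 2-fold higher, 48.6% of those at least 2-fold lower and 50.8% of all, and the SURE core in 32.5%, 33.3% and 32.4%. The evening element was in 3.08%, 2.8% and 3.07%. These shares are descriptions and no factor was measured at any of these sites.

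The nuclear genes of the photosystems and the electron transport chain fell without exception in the list, with 34 of 34 lower and a median log2FC of -1.90. PSAH2 (AT1G52230), a subunit of photosystem I, was at 124, 111 and 133 CPM at 44 DAS, against 1034, 711 and 881 CPM at 37 DAS, and its days did not overlap (log2FC -2.83, SE 0.18, adjusted p = 9.38e-13). PSBQ, of the oxygen-evolving complex, and ATPD, of the plastid ATP synthase, had log2FC of -2.54 (SE 0.19) and -2.51 (SE 0.2). Of 19 Calvin cycle genes 17 were lower and 0 higher (median log2FC -1.42). RBCS1A (AT1G67090), which encodes a small subunit of Rubisco, was at 1402, 1192 and 1417 CPM at 44 DAS, against 10154, 6408 and 9683 CPM at 37 DAS. Every library at 44 DAS was below every library at 37 DAS, and replicate 2 was the lowest at 37 DAS (log2FC -2.71, SE 0.22, adjusted p = 3.80e-11). RBCS2B and RBCS3B, near-identical copies whose reads may be shared, had log2FC of -3.18 (SE 0.28) and -3.02 (SE 0.25). RCA, Rubisco activase, fell by much less, with 4265, 3745 and 4561 CPM at 44 DAS, against 6350.2, 4851 and 6486 CPM at 37 DAS (log2FC -0.49, SE 0.12, adjusted p = 0.00106), and was not called in a fit of the 6 libraries alone (adjusted p = 0.0532).

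Photorespiration genes, which recycle the product of Rubisco's oxygenase reaction, fell less as a list, with 7 of 9 lower, 0 higher and a median log2FC of -0.43, or -0.27 with library size alone. The largest fall was that of AT1G11860, annotated as a glycine cleavage T protein (log2FC -1.88, SE 0.16, adjusted p = 1.44e-10), followed by SHM1, the mitochondrial serine hydroxymethyltransferase (log2FC -1.04, SE 0.14, adjusted p = 2.57e-07). The plastid ribosome list, nuclear genes for its protein subunits, had 36 of 36 genes lower with a median log2FC of -1.84. RPL15 was at 42.7, 36.5 and 43.7 CPM at 44 DAS, against 395, 248 and 366 CPM at 37 DAS, with no overlap (log2FC -3.04, SE 0.26, adjusted p = 9.03e-11). Against this fall in nuclear genes for chloroplast proteins, 16 of 19 tested genes of the organelle genomes were higher and 0 lower. These genes took 0.00326% to 0.0033% of the counts of a library at 44 DAS and 0.000805% to 0.00112% at 37 DAS, in libraries made from polyadenylated RNA.

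Chlorophyll synthesis was lower throughout, with 21 of 21 genes called and a median log2FC of -1.89. GUN4 (AT3G59400), which stimulates magnesium chelatase, was at 2.72, 1.59 and 2.59 CPM at 44 DAS, against 157, 91.7 and 145 CPM at 37 DAS. It was far lower in every 44 DAS library (log2FC -5.84, SE 0.4, adjusted p = 3.15e-12). GUN5, the catalytic H subunit of magnesium chelatase, was at 377, 291 and 347 CPM at 44 DAS, against 1911, 1403 and 1868 CPM at 37 DAS (log2FC -2.35, SE 0.18, adjusted p = 1.13e-11). The protochlorophyllide oxidoreductases PORA and PORB had log2FC of -4.96 (SE 0.71) and -3.13 (SE 0.24). The smallest fall of the list was that of GSA1 (log2FC -0.66, named after its value was seen).

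Chlorophyll breakdown went the other way, with 9 of 12 genes higher, 3 lower and a median log2FC of 1.37. NYE2 (AT4G11910) and NYE1 (AT4G22920) (STAY-GREEN2 and STAY-GREEN1) encode the proteins that act on the magnesium of chlorophyll a. NYE2 was at 72.9, 75.6 and 70.2 CPM at 44 DAS, against 5.26, 11.2 and 5.7 CPM at 37 DAS, with no overlap (log2FC 3.3, SE 0.49, adjusted p = 1.29e-06). NYE1 was at 147, 166 and 112 CPM at 44 DAS, against 27.6, 40.9 and 30.8 CPM at 37 DAS, and the lowest value at 44 DAS was above the highest at 37 DAS (log2FC 2.1, SE 0.3, adjusted p = 6.80e-07). PPH, the pheophytinase, was at 369, 419 and 376 CPM at 44 DAS, against 85.2, 130.1 and 101 CPM at 37 DAS (log2FC 1.88, SE 0.26, adjusted p = 5.21e-07). NYC1, a chlorophyll b reductase, and PAO, the pheophorbide a oxygenase that opens the ring, had log2FC of 1.53 (SE 0.2, adjusted p = 1.82e-07) and 1.25 (SE 0.18, adjusted p = 7.00e-07). CLH1, a chlorophyllase, varied more, with 294, 432 and 709 CPM at 44 DAS, against 69.01, 115 and 66.9 CPM at 37 DAS (log2FC 2.52, SE 0.63, adjusted p = 0.00105). The 3 lower members were CLH2, HCAR and ACD2, which were named after their values were seen (log2FC -0.75, -0.66 and -0.23). Only 1 gene of the list was lower with library size alone, in a fit of the 6 libraries, without replicate 1 or 2 at 44 DAS or without replicate 1 at 37 DAS.

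**Figure D2:**
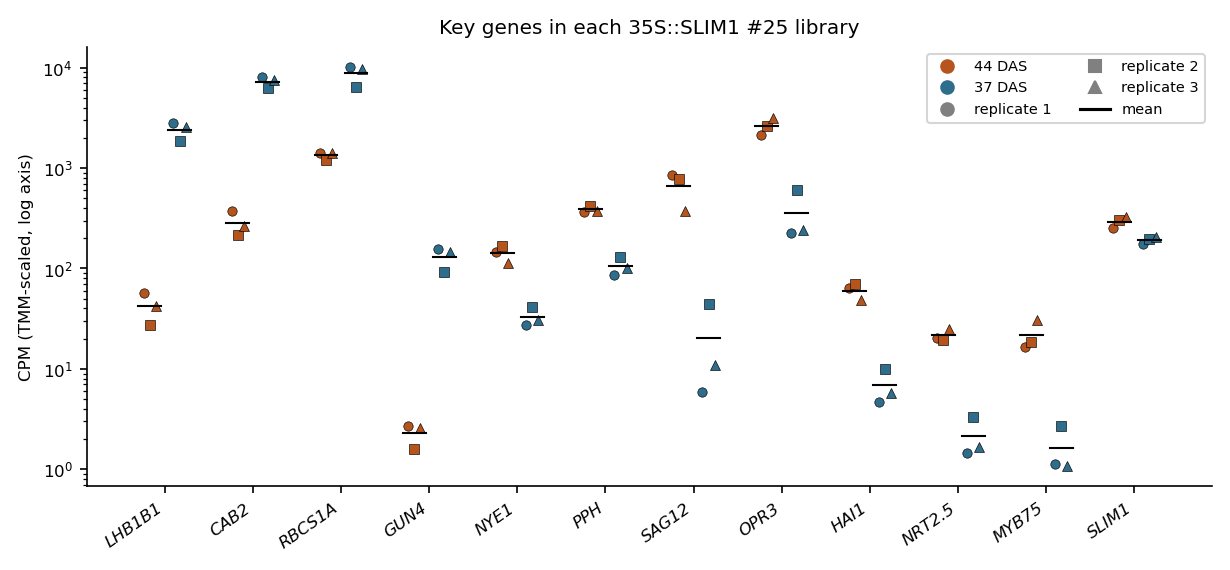
Expression of 12 genes in each library of 35S::SLIM1 #25, in CPM on a log axis, with 44 DAS to the left of 37 DAS for each gene, a marker shape for each replicate and a bar at the mean of 3. No gene shown has overlapping days, and replicate 2 at 37 DAS (square) is the 37 DAS library nearest to 44 DAS for 11 of the 12 genes shown.

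Of 22 senescence-associated effector genes, 14 were higher and 1 lower, with a median log2FC of 1.34. SAG12 (AT5G45890), a cysteine protease and the classical marker of late leaf senescence, was at 847, 774 and 371 CPM at 44 DAS, against 5.89, 44.5 and 10.8 CPM at 37 DAS. The days did not overlap, but both groups spread widely (log2FC 5.02, SE 1.84, adjusted p = 0.0181). The call was lost without replicate 1 (log2FC 4.58, adjusted p = 0.0694) or replicate 3 at 37 DAS (4.72, adjusted p = 0.0660). Replicate 2 had the highest of the 37 DAS values. SAG13 was at 272, 340.03 and 220.3 CPM at 44 DAS, against 50.2, 133 and 69.7 CPM at 37 DAS (log2FC 1.72, SE 0.57, adjusted p = 0.00957) and was not called without replicate 1 at 37 DAS (adjusted p = 0.0549). SRG1, RNS1, a secreted ribonuclease, and HAI1, a protein phosphatase, had log2FC of 3.6 (SE 0.63), 3.16 (SE 0.56) and 3.14 (SE 0.47). The lower member was SAG101 (log2FC -0.45, named after its value was seen), a partner of EDS1 in immunity, and its call was lost with RLE factors, library size alone, DESeq2 or the stricter filter of 50 counts and without replicate 1 at 44 DAS or replicate 2 at 37 DAS.

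Among 18 NAC regulators of senescence 9 were higher and 1 was lower (NAC090, named after its value was seen), with a median log2FC of 0.62. NAC032 (AT1G77450) was at 26.3, 23.2 and 26.3 CPM at 44 DAS, against 3.18, 4.74 and 3.72 CPM at 37 DAS, with no overlap (log2FC 2.7, SE 0.52, adjusted p = 4.83e-05). VNI2 was at 208, 203 and 251 CPM at 44 DAS, against 55.8, 53.5 and 50.2 CPM at 37 DAS, and its replicates agreed closely (log2FC 2.05, SE 0.16, adjusted p = 1.29e-11). ORE1 (NAC092), a central activator of age-dependent senescence, was at 43.4, 61.7 and 43.7 CPM at 44 DAS, against 17.7, 22.97 and 23.8 CPM at 37 DAS (log2FC 1.21, SE 0.32, adjusted p = 0.00181). NAP, which binds the promoters of abscisic acid and chlorophyll breakdown genes, was at 96.3, 112 and 80.5 CPM at 44 DAS, against 56.5, 59.8 and 70.6 CPM at 37 DAS and did not pass the test (log2FC 0.63, SE 0.34, adjusted p = 0.107). In a fit of the 6 libraries alone, 16 of the 18 NAC genes were called higher, NAP among them (adjusted p = 0.00375), and in a fit of the 9 libraries of this line 14 were. Over all 63 tested NAC genes 33 were higher and 12 lower (52.4% and 19.0%), against 29.3% and 36.5% of all genes tested.

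The WRKY regulators of senescence were split, with 6 of 14 higher and 6 lower (42.9% each, against 29.3% and 36.5% of all genes tested). WRKY75 (AT5G13080), which promotes salicylate accumulation and senescence, was at 29.3, 34.2 and 26.9 CPM at 44 DAS, against 5.99, 10.2 and 7.41 CPM at 37 DAS (log2FC 1.94, SE 0.47, adjusted p = 0.000765). WRKY45 was at 30.3, 32.8 and 41.3 CPM at 44 DAS, against 6.03, 7.93 and 5.17 CPM at 37 DAS (log2FC 2.45, SE 0.34, adjusted p = 3.89e-07). Both rose with no overlap between the days. WRKY53, a positive regulator of early senescence, was at 58.2, 42.2 and 46.6 CPM at 44 DAS, against 117, 97.3 and 146 CPM at 37 DAS (log2FC -1.29, SE 0.24, adjusted p = 2.97e-05). WRKY70, which restrains senescence and links salicylate to jasmonate signalling, was at 75.5, 24.6 and 30.6 CPM at 44 DAS, against 251, 296 and 341 CPM at 37 DAS (log2FC -2.76, SE 0.48, adjusted p = 1.21e-05), and WRKY54 had a log2FC of -2.05 (SE 0.48). These 3 fell in every 44 DAS library.

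Lists for the recycling of cell contents differed in direction. In the autophagy list 17 of 28 genes were higher and 2 lower, with a small median log2FC of 0.41. ATG8B (AT4G04620), one of the ubiquitin-like proteins that coat the autophagosome membrane, was at 52.7, 61.5 and 57.3 CPM at 44 DAS, against 13.6, 16.1 and 13.5 CPM at 37 DAS (log2FC 1.99, SE 0.15, adjusted p = 1.16e-11), and ATG7, the enzyme that activates them, was at 37.5, 45.3 and 29.8 CPM at 44 DAS, against 16.3, 21.5 and 19.5 CPM at 37 DAS (log2FC 0.97, SE 0.15, adjusted p = 2.40e-06). The lower members were ATG18D (log2FC -1.35, SE 0.15, adjusted p = 7.63e-09) and ATG12B (log2FC -0.63, named after its value was seen). Of 27 genes for amino acid and lipid breakdown 20 were higher and 0 lower, with a median log2FC of 0.90. LKR, the first enzyme of lysine breakdown, was at 296, 383 and 223 CPM at 44 DAS, against 29.04, 51.4 and 32.98 CPM at 37 DAS, with no overlap (log2FC 2.99, SE 0.4, adjusted p = 2.99e-07). AT5G38710, annotated as a proline dehydrogenase, was at 197, 247 and 329 CPM at 44 DAS, against 19.7, 48.1 and 24.3 CPM at 37 DAS (log2FC 3.07, SE 0.65, adjusted p = 0.000151). PES1, which makes phytyl esters from released phytol and fatty acids, had a log2FC of 2.62 (SE 0.45, adjusted p = 1.15e-05). Genes of the 26S proteasome, a list trimmed by gene product after values had been seen, changed little, with 5 of 33 higher, 22 lower and a median log2FC of -0.32. With library size alone 9 were higher and 13 lower (median -0.16), without replicate 2 at 44 DAS the median was -0.20, and without replicate 1 at 44 DAS and replicate 2 at 37 DAS together 14 were lower (median -0.17).

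Nitrogen remobilization genes were not uniform, with 8 of 19 higher and 5 lower (42.1% and 26.3%, against 29.3% and 36.5% of all genes tested). The cytosolic glutamine synthetase gene GLN1;4 (AT5G16570) was at 232, 298 and 356 CPM at 44 DAS, against 63.3, 106 and 59.7 CPM at 37 DAS (log2FC 1.95, SE 0.38, adjusted p = 5.34e-05), whereas GSR1 (GLN1;1) was at 1061, 1022 and 1143 CPM at 44 DAS, against 564, 892 and 575 CPM at 37 DAS (log2FC 0.67, SE 0.24, adjusted p = 0.0149) and was not called without replicate 1 or 3 at 37 DAS (adjusted p = 0.0772 and 0.0730). Both were higher in each 44 DAS library. ASN2, an asparagine synthetase gene, was at 7.07, 6.47 and 6.28 CPM at 44 DAS, against 109, 51.7 and 112 CPM at 37 DAS and fell with no overlap (log2FC -3.78, SE 0.39, adjusted p = 3.29e-09). The dark-inducible asparagine synthetase gene ASN1 was at 218, 293 and 167 CPM at 44 DAS, against 178, 167 and 158 CPM at 37 DAS and did not pass the test (log2FC 0.43, SE 0.43, adjusted p = 0.382). PYD1, of pyrimidine breakdown, rose (log2FC 1.56, SE 0.2, adjusted p = 1.22e-07).

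In the list of nitrate transport and response 11 of 26 genes were higher and 5 lower (42.3% and 19.2%). The shares over all genes tested were 29.3% and 36.5%, and the list median log2FC was 0.34. NRT2.5 (AT1G12940), a high-affinity nitrate transporter typical of nitrogen-starved plants, was at 20.4, 19.2 and 25.1 CPM at 44 DAS, against 1.46, 3.3 and 1.69 CPM at 37 DAS. It was low in all 37 DAS libraries and high in all 44 DAS libraries (log2FC 3.32, SE 0.48, adjusted p = 7.44e-07). NPF2.13 (NRT1.7), which loads nitrate from old leaves into the phloem, was at 484, 503 and 525 CPM at 44 DAS, against 103, 157 and 126 CPM at 37 DAS (log2FC 1.97, SE 0.27, adjusted p = 4.87e-07), and NLP3, a NIN-like transcription factor gene, was at 16.9, 17.1 and 12.5 CPM at 44 DAS, against 0.801, 1.29 and 0.387 CPM at 37 DAS (log2FC 4.22, SE 0.53, adjusted p = 9.74e-08). Both groups were apart for both genes. The vacuolar nitrate importer gene CLCA was at 57.3, 57.3 and 43.7 CPM at 44 DAS, against 109, 93.9 and 131 CPM at 37 DAS and the nitrate-induced repressor gene LBD39 was at 4.53, 4.86 and 2.12 CPM at 44 DAS, against 15.8, 11.6 and 15.96 CPM at 37 DAS, and both fell (log2FC -1.08, SE 0.23, adjusted p = 0.000203 for CLCA, and log2FC -1.91, SE 0.31 for LBD39).

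Jasmonate genes rose as a list, with 16 of 25 higher, 0 lower and a median log2FC of 1.76. In fits of the 6 or 9 libraries of this line 1 gene was lower. OPR3 (AT2G06050), the peroxisomal reductase of jasmonate synthesis, was at 2154, 2625 and 3163 CPM at 44 DAS, against 226, 604 and 244 CPM at 37 DAS. Replicate 2 at 37 DAS was well above the other 37 DAS libraries and below all of 44 DAS (log2FC 2.89, SE 0.65, adjusted p = 0.000322). The same order held for LOX3, a lipoxygenase gene, with 1055, 1277 and 1699 CPM at 44 DAS, against 149.7, 408 and 167 CPM at 37 DAS (log2FC 2.48, SE 0.68, adjusted p = 0.00236), and for JAZ10, a repressor gene of the pathway, with 336, 362 and 375 CPM at 44 DAS, against 35.8, 113 and 41.2 CPM at 37 DAS (log2FC 2.5, SE 0.74, adjusted p = 0.00438). AOC1, an allene oxide cyclase gene, was at 550.2, 652 and 1052 CPM at 44 DAS, against 87.6, 153 and 105 CPM at 37 DAS (log2FC 2.71, SE 0.65, adjusted p = 0.000675). CYP94B1, whose product oxidizes the active hormone jasmonoyl-isoleucine, was among the 15 largest rises of called genes with a symbol, no overlap of the days and a mean log2 CPM above 1, with 59.5, 75.4 and 77.4 CPM at 44 DAS, against 1.13, 4.37 and 1.41 CPM at 37 DAS (log2FC 4.93, SE 1.05, adjusted p = 0.000166).

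Abscisic acid genes rose as well, with 18 of 22 higher, 2 lower and a median log2FC of 1.34. The phosphatase genes HAI2 (AT1G07430) and HAI1 (AT5G59220) are strongly induced by the hormone. HAI2 was at 33.00, 28.7 and 26.8 CPM at 44 DAS, against 2.66, 3.59 and 2.62 CPM at 37 DAS (log2FC 3.32, SE 0.45, adjusted p = 3.31e-07) and HAI1 was at 63.4, 69.5 and 48.1 CPM at 44 DAS, against 4.71, 10.1 and 5.72 CPM at 37 DAS (log2FC 3.14, SE 0.47, adjusted p = 1.44e-06), with no overlap for either. The dehydrin gene RAB18 was at 68.2, 67.4 and 75.6 CPM at 44 DAS, against 12.6, 18.2 and 13.1 CPM at 37 DAS (log2FC 2.27, SE 0.37, adjusted p = 4.77e-06), and MAPKKK17, an abscisic acid-induced kinase gene, had a log2FC of 3.85 (SE 0.73). The lower genes were CYP707A3, one of 4 hydroxylase genes for breakdown of the hormone in the list, with 21.7, 25.2 and 24.3 CPM at 44 DAS, against 91.2, 99.8 and 109 CPM at 37 DAS (log2FC -2.07, SE 0.25, adjusted p = 5.90e-08), and the synthesis gene ABA2 (log2FC -1.22, named after its value was seen).

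Salicylate and immunity genes moved down, with 14 of 21 lower, 0 higher and a median log2FC of -0.91. PR5 (AT1G75040), a pathogenesis-related protein gene, was at 78.2, 28.3 and 27.1 CPM at 44 DAS, against 287, 636 and 336 CPM at 37 DAS. Replicate 1 was the highest at 44 DAS and replicate 2 the highest at 37 DAS, and the days did not overlap (log2FC -3.24, SE 0.51, adjusted p = 3.15e-06). ALD1 and FMO1, which make pipecolic acid and its N-hydroxylated form, had log2FC of -3.56 (SE 0.91, adjusted p = 0.00115) and -2.96 (SE 0.99, adjusted p = 0.0104). FMO1 was not called without replicate 2 (adjusted p = 0.0598) or replicate 3 (adjusted p = 0.0509) at 44 DAS. Without replicate 2 at 44 DAS 9 genes of the list were lower and 1 higher, without replicate 2 at 37 DAS 1 was higher, and without replicate 1 at 44 DAS the median log2FC was -1.51. With library size alone, DESeq2 or the stricter filter of 50 counts 1 gene was higher. In fits of the 6 or 9 libraries of this line, 1 and 2 genes were higher.

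Touch and wound response genes, which rise within minutes of mechanical stimulation, were lower at 44 DAS in 9 of 15 cases and higher in 1 (WRKY18, named after its value was seen), with a median log2FC of -0.81. TCH4 (AT5G57560), a cell wall enzyme gene, was at 152, 196 and 145 CPM at 44 DAS, against 1038, 1430.4 and 1393 CPM at 37 DAS (log2FC -2.97, SE 0.48, adjusted p = 4.75e-06). ERF6 was at 5.68, 8.73 and 8.83 CPM at 44 DAS, against 67.6, 54.5 and 73.01 CPM at 37 DAS (log2FC -3.07, SE 0.26, adjusted p = 1.21e-10) and ERF104 was at 25.03, 25.3 and 32.2 CPM at 44 DAS, against 117, 113 and 213 CPM at 37 DAS (log2FC -2.43, SE 0.35, adjusted p = 9.59e-07). All 3 were high in each 37 DAS library. Mean TCH4 in #25 was 25.02, 1287 and 164 CPM at 30, 37 and 44 DAS, so that 37 DAS was the highest of the 3 days. Stalks were removed about 4 min before harvest, and the handling of the 2 harvests cannot be told apart from age. Higher members of the list numbered 2 without replicate 2 at 37 DAS and 3 in fits of this line alone.

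Ethylene genes were divided, with 8 of 20 higher and 7 lower (40% and 35%, against 29.3% and 36.5% of all genes tested). Within the gene family of 1-aminocyclopropane-1-carboxylate (ACC) synthase, which makes the precursor of ethylene, ACS2 was at 11.4, 17.2 and 7.81 CPM at 44 DAS, against 1.41, 3.63 and 2.12 CPM at 37 DAS and ACS6 was at 43.9, 47.9 and 38.2 CPM at 44 DAS, against 117, 99.4 and 169.6 CPM at 37 DAS. ACS2 rose (log2FC 2.34, SE 0.43, adjusted p = 2.84e-05) and ACS6 fell (log2FC -1.57, SE 0.22, adjusted p = 4.48e-07), each with no overlap. ACO4, an ACC oxidase gene, was at 688, 937 and 1118 CPM at 44 DAS, against 273, 327 and 321 CPM at 37 DAS (log2FC 1.58, SE 0.23, adjusted p = 1.10e-06). ACS11, which was not in the list, was at 1.1, 1.81 and 0.865 CPM at 44 DAS, against 35.5, 42.4 and 45.7 CPM at 37 DAS, one of the 15 largest falls among the genes limited in that way (log2FC -5.02, SE 0.48, adjusted p = 8.34e-10).

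Sulfur genes, the known field of SLIM1, had 13 of 26 higher and 3 lower (50% and 11.5%), with a median log2FC of 0.51. Over all genes tested 29.3% were higher and 36.5% lower. The list also rose in Col-0 over the same days, with 14 higher, 3 lower and a median of 0.75. In slim1-cr 5 were higher and 4 lower, with a median of 0.26. Of all 21040 genes tested, 5146 were higher and 5633 lower in Col-0, and 4510 and 4245 in slim1-cr. The change in this line was higher than that in Col-0 for 4 of 26 genes and lower for 6, against 18.1% and 27.0% of all genes tested. Relative to slim1-cr it was higher for 9 genes and lower for 3, against 20.9% and 31.1% of all. SDI1 (AT5G48850), a gene induced by sulfur deficiency that represses glucosinolate synthesis, was at 18.4, 20.04 and 17.2 CPM at 44 DAS, against 4.15, 7.49 and 9.41 CPM at 37 DAS (log2FC 1.4, SE 0.43, adjusted p = 0.00521). The ATP sulfurylase gene APS4 was at 292, 349 and 316 CPM at 44 DAS, against 93.9, 125 and 95.7 CPM at 37 DAS (log2FC 1.61, SE 0.26, adjusted p = 4.16e-06), and LSU4 was at 5.61, 7.17 and 7.35 CPM at 44 DAS, against 1.63, 2.74 and 2.07 CPM at 37 DAS (log2FC 1.64, SE 0.36, adjusted p = 0.000238). These 3 were higher in all 44 DAS libraries, whereas LSU1 was at 28.1, 21.2 and 28.1 CPM at 44 DAS, against 16.1, 22.3 and 24.3 CPM at 37 DAS, overlapped between the days and did not pass the test (log2FC 0.3, SE 0.31, adjusted p = 0.394). SULTR3;5, a sulfate transporter subunit gene, fell (log2FC -2.75, SE 0.5). Glucosinolate genes had 13 of 24 higher and 3 lower (median log2FC 0.79, or 1.19 without replicate 1 at 44 DAS and replicate 2 at 37 DAS together). The lower ones included TGG1 (AT5G26000) and TGG2 (AT5G25980), the myrosinases that break glucosinolates down. TGG1 was at 416, 391 and 259 CPM at 44 DAS, against 4436, 3304 and 4895 CPM at 37 DAS (log2FC -3.57, SE 0.31, adjusted p = 1.79e-10) and TGG2 had a log2FC of -2.26 (SE 0.33), while MYB34, an activator of indole glucosinolate synthesis, and GTR1, a glucosinolate transporter gene, had log2FC of 2.09 (SE 0.5) and 2.03 (SE 0.48).

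Flavonoid and anthocyanin genes changed in both directions, with 14 of 38 higher (36.8%) and 12 lower (31.6%), against 29.3% and 36.5% of all genes tested. The median log2FC was 0.44, or 0.74 without replicate 1 at 44 DAS and replicate 2 at 37 DAS together. The MYB activators of anthocyanin synthesis were among the higher. MYB75 (AT1G56650) (PAP1) was at 16.6, 18.3 and 30.5 CPM at 44 DAS, against 1.13, 2.7 and 1.07 CPM at 37 DAS (log2FC 3.74, SE 0.71, adjusted p = 4.71e-05), MYB90 (PAP2) was at 3.25, 6.51 and 11.1 CPM at 44 DAS, against 0.118, 0.379 and 0.16 CPM at 37 DAS (log2FC 4.97, SE 0.91, adjusted p = 2.54e-05) and MYB113 was at 10.8, 15.9 and 16.6 CPM at 44 DAS, against 0.731, 1.16 and 0.114 CPM at 37 DAS (log2FC 4.43, SE 1.01, adjusted p = 0.000379). All 3 were low at 37 DAS and higher in each 44 DAS library. Of the enzymes, DFR, of the late anthocyanin branch, was at 26.96, 36.7 and 30.9 CPM at 44 DAS, against 10.7, 11.1 and 4.49 CPM at 37 DAS (log2FC 1.85, SE 0.68, adjusted p = 0.0188) and was not called without replicate 3 at 37 DAS (adjusted p = 0.0879). TT4, chalcone synthase, was at 85.7, 111 and 114 CPM at 44 DAS, against 54.6, 54.8 and 50.9 CPM at 37 DAS. Its days did not overlap, but the change did not pass the test (log2FC 0.96, SE 0.44, adjusted p = 0.0571), whereas it did with RLE factors (adjusted p = 0.0461), library size alone (0.0326), DESeq2 (0.0303), the stricter filter (0.0414) and in fits of the 6 (0.000324) or 9 (5.25e-05) libraries of this line. MYB12, an activator of flavonol synthesis, fell at very low expression (log2FC -3.08, SE 0.63, adjusted p = 0.000112).

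Genes of cell division and growth fell together with those of the chloroplast. Of 26 tested cyclin genes 23 were lower and 1 higher, with a median log2FC of -2.91, and all 5 MCM genes, which encode the replicative helicase, were lower with a median of -3.26. MCM6 (AT5G44635) was at 1.35, 0.309 and 0.364 CPM at 44 DAS, against 12.2, 7.91 and 10.01 CPM at 37 DAS (log2FC -3.9, SE 0.42, adjusted p = 7.96e-09) and CYCA2;3 was at 0.988, 0.494 and 0.41 CPM at 44 DAS, against 9.59, 6.62 and 9.07 CPM at 37 DAS (log2FC -3.74, SE 0.35, adjusted p = 6.86e-10). Neither overlapped, and replicate 1 was the highest at 44 DAS for both. Of 9 growth-regulating factor genes 5 were lower and 1 higher (median -1.80, or -0.92 with the stricter filter of 50 counts), and the higher one, GRF8, named after its value was seen, was not called without replicate 3 at 44 DAS or replicate 1 or 3 at 37 DAS, whereas 2 were higher without replicate 1 at 44 DAS. Alpha-expansins, which loosen the cell wall, had 12 of 16 tested genes lower and 1 higher (median -1.61). EXPA8 (AT2G40610) was at 1.17, 0.371 and 0.956 CPM at 44 DAS, against 33.6, 16.98 and 24.2 CPM at 37 DAS (log2FC -4.91, SE 0.71, adjusted p = 8.77e-07) and EXPA6 was at 19.1, 10.01 and 9.6 CPM at 44 DAS, against 138, 99.1 and 111 CPM at 37 DAS (log2FC -3.16, SE 0.27, adjusted p = 9.88e-11). Of 23 xyloglucan endotransglucosylase genes 13 were lower and 5 higher (median -1.08), and XTH4 was at 53.7, 66.4 and 36.8 CPM at 44 DAS, against 380.4, 309.6 and 426 CPM at 37 DAS (log2FC -2.83, SE 0.3, adjusted p = 3.66e-09). The cytokinin-degrading oxidase gene CKX5 rose to 30.9, 32.6 and 44.6 CPM at 44 DAS, against 4.15, 4.66 and 3.78 CPM at 37 DAS (log2FC 3.1, SE 0.4, adjusted p = 1.48e-07). Of 7 cytokinin oxidase genes 3 were higher and 1 lower (42.9% and 14.3%), with a median log2FC of -0.06. Of 5 tested type A response regulator genes, which report cytokinin signalling, 2 were lower (40%) and 0 higher. Over all genes tested 29.3% were higher and 36.5% lower, so the share of lower response regulators was near that of all genes. ARR9 had a log2FC of -1.996 (SE 0.38).

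Within the same limits on symbol, overlap and mean expression, the largest rises outside these lists included FAR6 (AT3G56700), a fatty acyl reductase gene, with 53.1, 81.4 and 57.1 CPM at 44 DAS, against 0.212, 4.48 and 0.114 CPM at 37 DAS (log2FC 5.31, SE 1.34, adjusted p = 0.00108), and CSLG2, a cellulose synthase-like gene, with 77.96, 125 and 76.3 CPM at 44 DAS, against 1.46, 8.73 and 4.19 CPM at 37 DAS (log2FC 4.27, SE 0.69, adjusted p = 4.21e-06). The cytosolic chaperone gene HSP70 was at 36.6, 35.2 and 32.9 CPM at 44 DAS, against 1.7, 3.19 and 2.42 CPM at 37 DAS (log2FC 3.84, SE 0.48, adjusted p = 8.74e-08), and HSP90.1 had a log2FC of 2.84 (SE 0.37). In the heat shock protein list 7 of 16 genes were higher and 6 lower (43.8% and 37.5%, against 29.3% and 36.5% of all genes tested). The largest falls within those limits included BG3 (AT3G57240), a beta-1,3-glucanase gene, with 1.39, 0.762 and 1.25 CPM at 44 DAS, against 55.2, 68.9 and 64.9 CPM at 37 DAS (log2FC -5.8, SE 0.55, adjusted p = 7.70e-10), and GER3, a germin gene, with 5.41, 0.0618 and 0.273 CPM at 44 DAS, against 114, 66.9 and 105 CPM at 37 DAS (log2FC -5.65, SE 0.84, adjusted p = 1.40e-06). FdC1, a ferredoxin-like gene, was at 0.359, 0 and 1.48 CPM at 44 DAS, against 41.4, 19.5 and 35.8 CPM at 37 DAS, with no count in 1 library (log2FC -5.74, SE 0.76, adjusted p = 2.02e-07). The tau glutathione transferases, detoxifying enzymes, had 18 of 25 genes higher and 4 lower (median 1.51), and GSTU5 was at 728, 910.3 and 1124 CPM at 44 DAS, against 78.6, 141 and 82.7 CPM at 37 DAS (log2FC 3.19, SE 0.54, adjusted p = 1.00e-05).

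The remaining lists were mixed, and over all genes tested 29.3% were higher and 36.5% lower. Phosphate starvation genes had 6 of 15 higher and 3 lower, and the galactolipid synthase gene MGD3 was at 7.004, 9.1 and 8.22 CPM at 44 DAS, against 0.613, 1.14 and 0.707 CPM at 37 DAS (log2FC 3.3, SE 0.46, adjusted p = 4.97e-07). Starch and sugar genes had 8 of 18 higher and 4 lower, with log2FC of 2.36 (SE 0.47) for GPT2, a glucose 6-phosphate translocator gene, and -1.83 (SE 0.15) for APL1, of starch synthesis. Oxidative stress enzymes and ferritins had 6 of 17 higher and 6 lower, with the mitochondrial alternative oxidase gene AOX1D higher (log2FC 2.42, SE 0.56, adjusted p = 0.000432) and the plastid superoxide dismutase gene FSD1 lower (log2FC -1.23, SE 0.36, adjusted p = 0.00367). Iron deficiency genes had 2 of 10 higher and 3 lower. Cold response genes had 5 of 13 higher and 4 lower, of which 1 was lower without replicate 2 at 44 DAS. Clock genes had 6 of 24 higher and 6 lower, of which 0 and 1 reached 2-fold, and 3 were lower without replicate 2 at 44 DAS. Flowering time genes had 3 of 20 higher and 7 lower, with 5 higher without replicate 2 at 44 DAS, and SPL9, which promotes the adult phase, was at 3.01, 1.19 and 1.05 CPM at 44 DAS, against 12.1, 14.7 and 12.7 CPM at 37 DAS (log2FC -2.91, SE 0.45, adjusted p = 2.60e-06).

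Markers of several cell types differed between the days, but no marker of guard cells, the shoot meristem or seed storage was called. The sum of 4 mesophyll markers, all photosynthetic genes, was 5441 to 6726 CPM at 44 DAS and 17751 to 25542 CPM at 37 DAS, with 4 of 4 lower. The 3 phloem markers summed to 829 to 900 CPM at 44 DAS and 574 to 596 CPM at 37 DAS, with 3 of 3 higher. Of the 5 xylem and secondary wall markers, whose sum was 159 to 325 CPM at 44 DAS and 87.5 to 91.7 CPM at 37 DAS, the cellulose synthase genes CESA4, CESA7 and CESA8 were higher and the proteases XCP1 and XCP2 lower. CESA7 was at 67.3, 104 and 48.1 CPM at 44 DAS, against 9.85, 11.9 and 9.16 CPM at 37 DAS (log2FC 2.83, SE 0.36, adjusted p = 1.36e-07), and NAC012 (SND1), a master regulator of secondary wall formation, was at 3.28, 5.07 and 1.89 CPM at 44 DAS, against 0.0236, 0.134 and 0.0912 CPM at 37 DAS (log2FC 5.31, SE 1.22, adjusted p = 0.000611). The 3 epidermis markers summed to 163 to 182 CPM at 44 DAS and 297 to 365 CPM at 37 DAS, with 2 of 3 lower, and 0 of 3 guard cell markers were called (34.8 to 37.4 CPM and 34.6 to 43.6 CPM). Seed storage genes summed to at most 0.735 CPM in any library and 2 of 5 were at 0 in all. The 4 shoot meristem markers summed to 14.5 to 26.4 CPM at 44 DAS and 12.8 to 24.6 CPM at 37 DAS. The 6 root markers, of which RHD6 was at 0, summed to 19.6 to 25.9 CPM at 44 DAS and 38.3 to 40.3 CPM at 37 DAS. Nearly all of this sum came from PHO1 and SCR, and COBL9, EXPA7 and EXPA18 were at most at 0.247 CPM. Without replicate 1 at 44 DAS 5 of 6 flower organ markers were lower, against 2 with all libraries and 0 without replicate 2 or without replicate 3 at 44 DAS, and 1 without replicate 2 or without replicate 3 at 37 DAS. The part of cell composition in the results above was not tested. Of 7 reference genes SAND, YLS8, UBC9, UBC21 and ACT2 were not called, UBQ10 was higher (log2FC 0.71, SE 0.11, adjusted p = 3.51e-06) and PP2AA3 lower (log2FC -0.18, SE 0.05, adjusted p = 0.00443), the last not called with library size alone (adjusted p = 0.787), the stricter filter (0.0625), in fits of the 6 (0.158) or 9 (0.0919) libraries of this line, without replicate 2 at 44 DAS (0.184) or without replicate 1 at 44 DAS and replicate 2 at 37 DAS together (0.143).

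**Figure D3:**
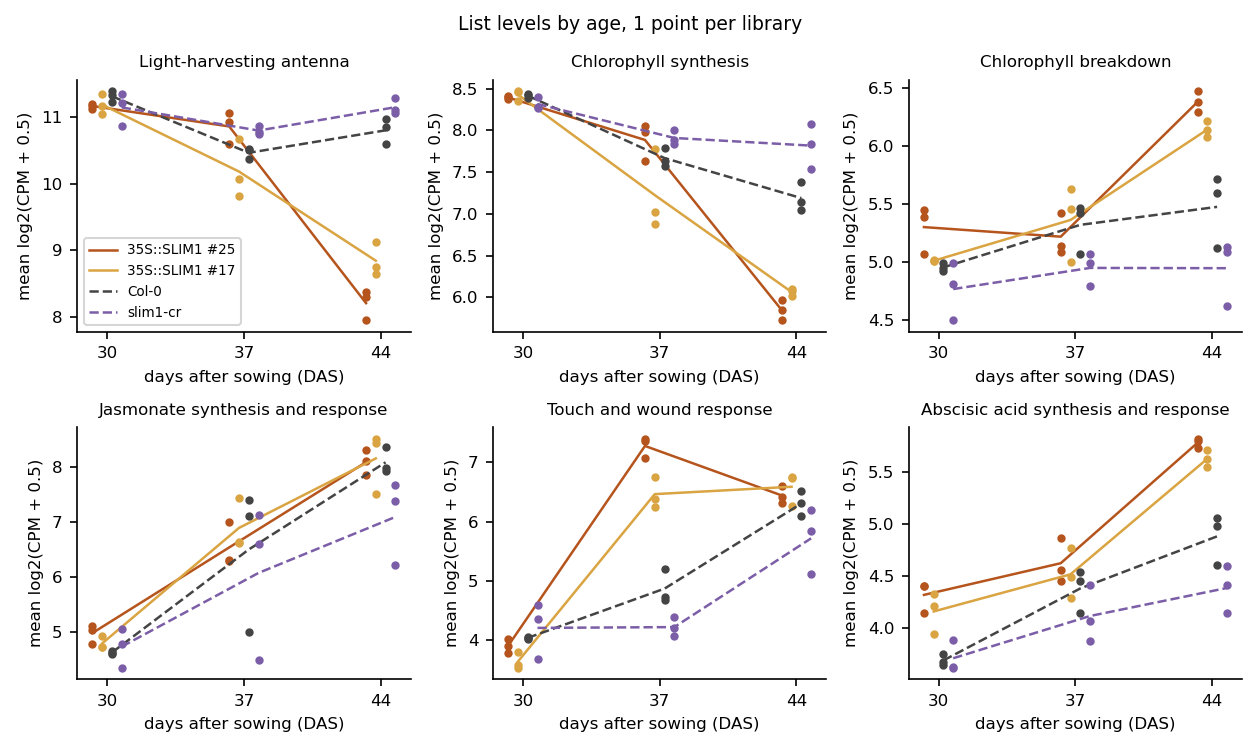
Mean log2(CPM + 0.5) over the members of 6 gene lists (y axis) at 30, 37 and 44 DAS (x axis), with 1 point per library and a line through the means of 3 libraries for #25, #17, Col-0 and slim1-cr. Between 37 and 44 DAS the antenna level drops in #25 and #17 but not in Col-0 or slim1-cr, and the touch level in #25 peaks at 37 DAS.

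Whether these changes were the usual ones of a week of ageing was examined by testing the change in #25 against the change over the same days in each of the other genotypes. Relative to Col-0 the change differed for 9498 genes (45.1%), with 3817 (18.1%) higher and 5681 (27.0%) lower in #25. Relative to slim1-cr it differed for 10945 genes (52.0%), 4393 (20.9%) higher and 6552 (31.1%) lower. Relative to #17, the other overexpressor, it differed for 2039 genes (9.69%), 658 (3.13%) higher and 1381 (6.56%) lower. These 3 tests share the #25 libraries. With library size alone upward differences were 69%, 61.6% and 64.2% of calls, against 40.2%, 40.1% and 32.3% with TMM factors. The counts against #17 depended on single libraries, and leaving out 8 of the 12 libraries in turn moved one of them by over 1.5 times (#25 replicates 2 and 3 at 44 DAS and 1 and 3 at 37 DAS, #17 replicate 3 at 44 DAS and 1, 2 and 3 at 37 DAS). They were 1321 higher and 2690 lower without #17 replicate 3 at 37 DAS, and 211 higher and 537 lower without #17 replicate 2 at 37 DAS. The 12 libraries of #25 and #17 at these days, fitted alone, gave 334 higher and 388 lower.

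Within each genotype's own week, which shares no library with that of #25, 10779 genes were called in Col-0 (51.2%), 8755 in slim1-cr (41.6%) and 9877 in #17 (46.9%). Genes called in both #25 and #17 numbered 8649, which was 62.4% of the calls in #25 and 87.6% of those in #17, and 84 of them had opposite directions. With Col-0 the shared calls were 7537 (54.4% of #25 and 69.9% of Col-0), of which 1416 were opposite. With slim1-cr they were 5794 (41.8% of #25 and 66.2% of slim1-cr), of which 1841 were opposite. Across 21040 genes, which are not independent, the log2FC of #25 had a Pearson correlation of 0.849 with that of #17, 0.394 with Col-0 and 0.218 with slim1-cr. Of the 8565 genes called in the same direction in #25 and #17, 7512 did not pass the test of the difference, 1047 moved further in #25 and 6 less far.

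The antenna list differed between genotypes, with 20 genes lower in #25, 20 in #17, 0 in slim1-cr and 1 in Col-0. The antenna median was -2.18 in #25, -1.08 in #17, 0.33 in slim1-cr and 0.34 in Col-0. Of its 21 genes, 18 changed more negatively in #25 than in #17, 20 more than in slim1-cr and 20 more than in Col-0. LHB1B1 was at 42.02 ± 14.8 CPM at 44 DAS and 2410.4 ± 484 CPM at 37 DAS in #25, at 108 ± 66.3 and 1089 ± 943 CPM in #17, at 4336 ± 654 and 2081 ± 44.5 CPM in slim1-cr, and at 2649 ± 736 and 1377 ± 234 CPM in Col-0 (SD, n = 3). The difference of its log2 change from that in Col-0 was -6.79 (SE 0.64, adjusted p = 3.74e-09). GUN4 fell in Col-0 too (log2FC -1.53, adjusted p = 0.000313), but less than in #25 (difference -4.31, SE 0.49, adjusted p = 5.62e-08). The chlorophyll breakdown median was 1.37 in #25, 0.69 in #17, 0.04 in slim1-cr and 0.07 in Col-0, and that of the abscisic acid list was 1.34 in #25, 1.14 in #17, 0.22 in slim1-cr and 0.52 in Col-0.

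Jasmonate genes had positive list medians in every genotype, with 1.76 in #25, 1.47 in #17, 0.81 in slim1-cr and 1.33 in Col-0. Of the 25 genes 16, 16, 6 and 11 were called higher and 0 lower in these genotypes. OPR3 was at 2647 and 358 CPM at 44 and 37 DAS in #25 and at 2264 and 713 CPM in Col-0, and the difference of the changes did not pass the test (1.22, SE 0.86, adjusted p = 0.254). SAG12 was at 664 ± 256 and 20.4 ± 21.02 CPM at 44 and 37 DAS in #25 and at 11.5 ± 12.4 and 1.89 ± 2.57 CPM in Col-0, and the difference of the changes did not pass the test either (2.46, SE 2.37, adjusted p = 0.417). Senescence and recycling lists also rose without the transgene. The effector median was 1.34 in #25, 0.42 in #17, 1.09 in slim1-cr and 1.13 in Col-0. In the same order the NAC regulator medians were 0.62, 0.52, 1.06 and 0.92, and the autophagy medians 0.41, 0.24, 0.51 and 0.60. Those of amino acid and lipid breakdown were 0.90, 0.34, 0.75 and 0.93. Of 28 autophagy genes, 12 changed more negatively in #25 than in Col-0 and 7 more positively, against 27.0% and 18.1% of all genes tested.

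Some genes moved in opposite directions in #25 and the genotypes without the transgene. The touch list median was -0.81 in #25, -0.15 in #17, 1.51 in slim1-cr and 1.26 in Col-0, and 11 of 15 genes differed downward from Col-0. BT2 (AT3G48360), a nitrate- and sugar-responsive BTB-TAZ scaffold gene, was at 6.24, 6.88 and 6.53 CPM at 44 DAS, against 251, 135 and 334 CPM at 37 DAS in #25 (log2FC -5.19, SE 0.72, adjusted p = 4.03e-07). It was at 286 ± 109 CPM at 44 DAS and 11.8 ± 7.69 CPM at 37 DAS in Col-0, and the difference of the log2 changes was -9.8 (SE 0.995, adjusted p = 1.18e-08). Over 30, 37 and 44 DAS its mean was 18.6, 239.8 and 6.55 CPM in #25, 2.15, 47.6 and 4.87 CPM in #17, 8.6, 5.12 and 233 CPM in slim1-cr and 11.6, 11.8 and 286 CPM in Col-0, so that its high day was 37 DAS in the overexpressors and 44 DAS in the others. The floral repressor gene TEM2 had the same pattern, with 43.4, 365 and 97.2 CPM in #25 and 60.8, 28.2 and 138 CPM in Col-0 (difference -4.2, adjusted p = 5.14e-12). BT5 and DREB26 also fell in #25 (log2FC -2.63 and -3.64) and rose in Col-0 (log2FC 3.55, adjusted p = 1.36e-07, and 1.98, adjusted p = 0.000589).

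Against Col-0 the change in #25 was higher for 6 and lower for 8 of 19 nitrogen remobilization genes. Of 26 nitrate genes it was higher for 10 and lower for 6. The shares over all genes tested were 18.1% higher and 27.0% lower. CLCA changed by -1.08 in #25 and 2.1 in Col-0 on the log2 scale, a difference of -3.18 (SE 0.33, adjusted p = 1.77e-08). ASN1, not called in #25, was at 1182 ± 77.2 CPM at 44 DAS and 138 ± 54.02 CPM at 37 DAS in Col-0 (difference of changes -2.66, SE 0.62, adjusted p = 0.000875). NRT2.5 was at 0.693 ± 0.35 CPM at 44 DAS and 1.55 ± 0.298 CPM at 37 DAS in Col-0, where it was not called (adjusted p = 0.0612), and its change was higher in #25 by 4.46 (SE 0.69, adjusted p = 6.48e-06). GSR1 fell in Col-0 (log2FC -1.2, adjusted p = 0.000144), and its change in #25 was higher by 1.87 (adjusted p = 5.35e-05). For MYB75 the change in #25 was higher than that in slim1-cr by 5.57 (SE 0.98, adjusted p = 2.70e-05) and than that in Col-0 by 3.03 (SE 0.95, adjusted p = 0.0103).

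**Figure D4:**
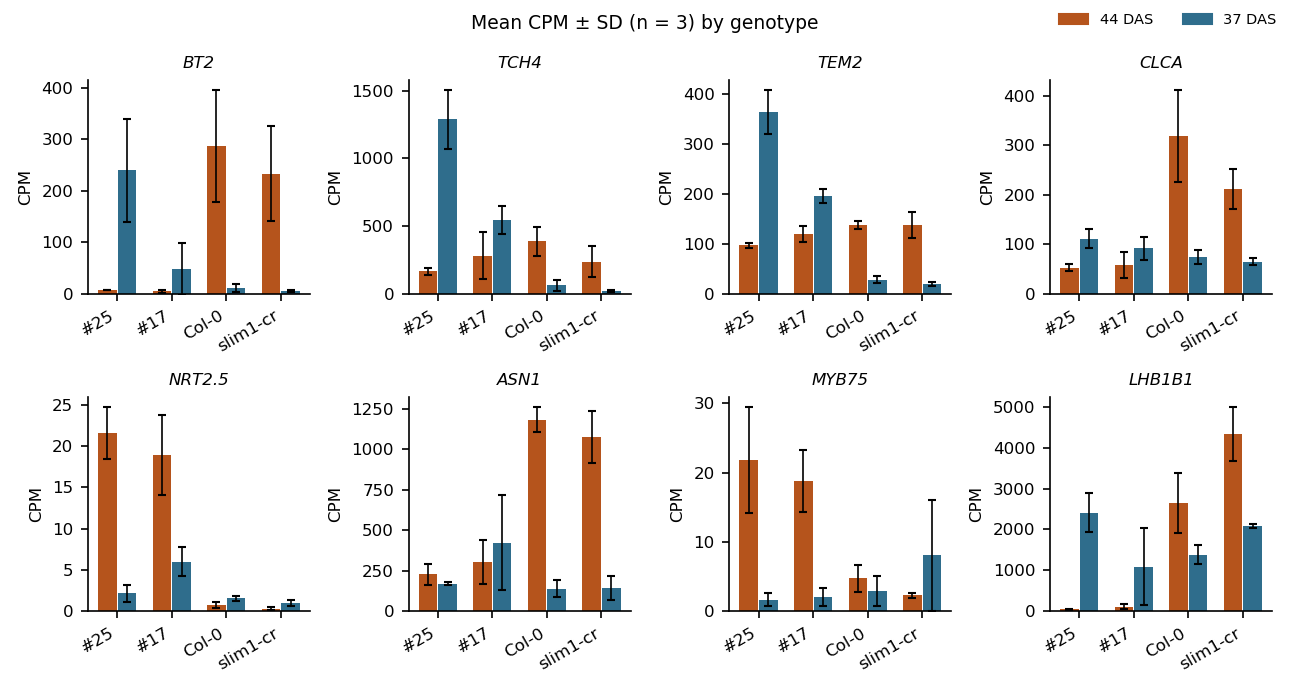
Mean CPM ± SD (n = 3) of 8 genes at 44 and 37 DAS in #25, #17, Col-0 and slim1-cr, with each y axis starting at 0. BT2, TCH4 and TEM2 are higher at 37 DAS in both overexpressors and higher at 44 DAS in Col-0 and slim1-cr, and LHB1B1 is near 0 at 44 DAS in the overexpressors only.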

How the data were processed

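RNA of about 100 mg of rosette tissue (RIN 6.50 to 8.50) was sequenced by a service provider as strand-specific, paired-end libraries of polyadenylated RNA with reads of 150 bases. Per the study's methods, reads were aligned with CLC Genomics Workbench to TAIR10. The deposited table holds raw counts per gene for 39 libraries, and whether counting used strand is not given in the sources used here. The submitters' processing notes also name DESeq2 1.40.2, whose normalized table was not used here. All 39 libraries in 13 groups were fitted together with edgeR 4.0.16 in R 4.3.3 (TMM factors, filterByExpr with its minimum count of 10, robust quasi-likelihood test, Benjamini-Hochberg adjustment over 21040 genes), with 44 minus 37 DAS in #25 and its difference from the same contrast in each other genotype as the tests. SE was |log2FC| divided by the square root of F. Genes were grouped by lists, and a list is described by its counts and median, with no test of the list.

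The genes named were SLIM1, the 15 highest and 15 lowest log2FC among called genes that had a symbol, no overlap of the days and over 1 mean log2 CPM, up to 4 called members of each list with the largest change, the 5 largest differences per genotype contrast, and a fixed set of 25 genes; others are said to have been chosen after their values were seen. The members and lists were chosen with earlier results of these data known. Upstream bases come from the RefSeq TAIR10.1 genome. Scripts were tested on simulated data. Alternatives were RLE factors, library size alone, DESeq2 1.42.0, other filters of low counts, fewer libraries, a replicate block and leaving out each library. With 3 libraries per group, precision was limited by their number and not by depth.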

Additional observations from a re-analysis of the deposited data

Results flagged for a closer look

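The changes between 37 and 44 DAS with the largest differences between #25 and another genotype are given here. Each value is the log2 change in #25 minus that in the other genotype. Those relative to Col-0 and slim1-cr were not re-run under the alternatives. Adjusted p is that of the edgeR test of the difference of changes, in the fit of all 39 libraries (3 per group and day). Relative to Col-0, the difference was -9.80 for BT2 (adjusted p = 1.18e-08), -6.79 for LHB1B1 (3.74e-09), -6.18 for BT5 (5.01e-09), -5.81 for LRX2, a leucine-rich repeat extensin gene (6.71e-08), and -5.64 for THI2.2, a thionin gene (2.68e-07). Relative to slim1-cr it was -10.70 for BT2 (adjusted p = 2.55e-09), -7.52 for ACS11 (4.91e-10), -6.90 for LHB1B1 (1.56e-09), -6.84 for PHI-1, a phosphate-induced gene (1.02e-08), and -6.51 for DREB26, an ERF transcription factor gene (8.98e-09).

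Relative to #17 the largest differences were -3.87 for ORA47, a jasmonate-responsive ERF gene (adjusted p = 3.28e-05), -3.30 for FdC1 (0.0276), -3.16 for EXPA8 (0.031), -3.11 for CBF1, a cold-induced transcription factor gene (0.000534), and 2.99 for AHP4, a histidine phosphotransfer gene (0.0241). The calls for FdC1, EXPA8 and AHP4 did not hold under many alternatives. When each of the 12 libraries of #25 and #17 was left out in turn, the call was lost 8 times for FdC1 (adjusted p = 0.0551 to 0.0910), 7 times for EXPA8 (0.0533 to 0.342, the highest without #17 replicate 2 at 44 DAS, with a difference of -1.55) and 5 times for AHP4 (0.0644 to 0.0817). FdC1 (adjusted p = 0.203) and EXPA8 (0.0971) also did not pass the test in the 12 libraries of #25 and #17 alone, nor did FdC1 in DESeq2 without independent filtering (0.0506).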

How the results depend on the processing

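None of the 219 genes named by rule changed the sign of its change in #25 under the alternatives run. Differences of single genes were re-run only for the 5 largest relative to #17, and none of these changed sign. Single-gene differences from Col-0 and slim1-cr were not re-run, so how far they depend on the processing is not known. For lists whose median in #25 is printed here, no change of sign exceeded the SD between libraries of a day. Smaller changes of sign and the medians of other lists were not examined. The balance of calls did change. The median log2FC of all genes (-0.06) was 0.09 with library size alone, at most 0.004 in fits of the 6 or 9 libraries of #25, and 0.03 without #25 replicate 2 at 44 DAS or without its replicate 1 at 44 DAS and replicate 2 at 37 DAS together. More genes of #25 were higher than lower with library size alone (7630 and 6238), without replicate 2 at 44 DAS (6544 and 6324) and without that pair of libraries (6579 and 6465), an alternative chosen after seeing the data. The 6171 higher and 7680 lower genes of #25 ranged over 5402 to 6544 and 6324 to 7450 when 1 library was left out, and over 279 to 319 and 323 to 369 for the called members summed over the lists (314 and 374). DESeq2 gave 6718 and 7288. Differences from Col-0 ranged over 3302 to 4082 higher and 4615 to 5650 lower, those from slim1-cr over 3886 to 4872 and 5391 to 6530, and those from #17 over 211 to 1321 and 537 to 2690. With library size alone the balance also turned for the differences, with 7544 higher and 3388 lower differences from Col-0, 7060 higher from slim1-cr, and 1374 higher and 767 lower from #17. For #17, DESeq2 gave 1048 higher (1090 with its default filtering) and the 12 libraries alone 334 higher and 388 lower. Deviations from the day mean of libraries with the same replicate number correlated by -0.26, -0.09 and 0.04. With 3 libraries per day these values cannot exclude a pairing of the samples. A replicate block gave 6187 higher and 7689 lower. Of the 219 genes named by rule, 17 changed their call in #25 under at least 1 alternative. FdC1, EXPA8 and AHP4 lost their called difference from #17, which makes 20 genes. Genes named after their values were seen are not in these counts, among them LHCB7, SAG101 and GRF8, whose calls also changed. With 40.85 to 46.1 M counts per library, depth limits only genes near 0.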
